A study of Mus musculus with 38 samples.

Results

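The respiratory chain of mitochondria was described here at the level of its mRNAs. Its genes were picked by symbol: the Nduf subunits of complex I, Sdha to Sdhd of complex II, the Uqcr genes of complex III, the Cox4 to Cox8 genes of complex IV, the Atp5 genes of complex V, and the mitochondrially encoded mt-Nd, mt-Cytb, mt-Co and mt-Atp genes. The rule found 102 genes of the 54352 in the count table, of which 89 were nuclear and 13 lay on the mitochondrial genome. It did not take Cyc1, a subunit of complex III, whose values are given with the electron carriers. Of the 102, 90 had enough counts to be tested (77 nuclear and all 13 mitochondrial); 4 were processed pseudogenes, and the other 8 coding entries held at most 35 counts over all libraries.

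The electron transport chain moves electrons from NADH (complex I) and succinate (complex II) through ubiquinone, complex III and cytochrome c to oxygen at complex IV. Complexes I, III and IV pump protons, and complex V, the ATP synthase, uses the gradient to make ATP. Complex II is wholly nuclear encoded, while the other complexes join nuclear subunits with core subunits made inside the mitochondrion. In the intestinal epithelium, fatty acid oxidation feeds this chain and is under the control of the nuclear receptors PPARα and PPARδ.

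The libraries were 3′ digital gene expression libraries, which count reads near the polyadenylated end of a transcript, from intestinal stem cell organoids grown out of crypts of C57BL6 mice. Organoids were kept for 8 days, through 2 passages, with 1 µM of the PPARδ agonist GW501516 (GW) or with its vehicle, 0.1% DMSO, which all groups received. The mice were of 4 genotypes: a double line that is Ppard-fl/fl and Ppara-null (DA), Ppara-null (A), Ppard-fl/fl (D), and wild type (WT). The labels give a floxed Ppard allele without naming a recombinase; the design text calls these lines knockouts. Libraries numbered 5 with GW and 4 with vehicle in DA, 5 and 5 in A, 3 and 5 in D, and 5 and 5 in WT. One further sample has conflicting labels and was assigned to no group; since 4 columns were named for GW-treated D organoids and 3 labelled samples exist, it may be among the 3 used. Nothing states which mouse or culture a library came from, so p-values measure the spread between libraries only.

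Depth ran from 353347 to 577557 counts per library (median 483848). All 7 epithelial markers were detected, with summed levels of 1164 to 2388 normalised counts (CPM, a count scaled to a library total of 1000000), while stroma, muscle and immune marker lists held 3, 4 and 16 counts over all libraries. The PPAR target Angptl4 was higher with GW in WT by 1.95 ± 0.24 on the log2 scale (SE; edgeR adjusted p = 1.22e-06). It was also higher in A (1.38 ± 0.24; adjusted p = 0.00101). Its difference was 1.02 ± 0.26 in D (adjusted p = 0.696) and 0.01 ± 0.24 in DA (adjusted p = 0.9998). In vehicle, Angptl4 in DA already stood 1.02 ± 0.27 above WT (adjusted p = 0.111). Ppara was lower in DA than in WT vehicle organoids (log2 fold change -3.04 ± 0.64; adjusted p = 0.0291). In A it stood at -2.24 ± 0.54 (adjusted p = 0.0931), whereas Ppard had too few counts for a check of its allele. Library numbers in the column names were split here into 2 runs, 37 to 60 (14 libraries) and 1 to 36 (23 libraries), with both runs in every group. The numbers also have gaps within each run. Smaller sets of neighbouring numbers were not fitted, so differences between such sets are not covered. What these numbers stand for is not given in the sources used here; Xist counts exceeded those of Y-linked genes in 0 of 14 libraries of the later run and in 18 of 23 of the earlier one.

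The chain took 10.2% to 12.3% of all counts in a library. Nuclear subunits of complex V accounted for a median of 1.85% of counts, those of complex I for 1.63%, of complex IV for 1.16%, of complex III for 0.657% and of complex II for 0.176%. The mitochondrial subunits of complex IV took 2.14%, those of complex I 1.67%, mt-Cytb of complex III 1.01%, and those of complex V 0.926%. Thus, 13 mitochondrial genes and 77 tested nuclear genes gave sums of similar size, from 48472 to 73249 CPM for the mitochondrial genes and from 45154 to 66745 CPM for the nuclear ones.

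The subunits that come in tissue isoforms showed which form these organoids carry, and 2 promoters are shown for the clearest pair. The sequences below are from RefSeq, build GRCm38.p6, 250 bases before to 50 after the annotated start; 66 of the 88 nuclear symbols had an entry, with 71 promoters. Capitals mark matches, on either strand, to GCGCA, any base and GCGC (the core bound by NRF1, a transcription factor of nuclear respiratory genes) or to CCGGAAG (the core of ETS factors such as GABP). Shown are Cox8a and Cox8b, the detected and the undetected form of one complex IV subunit, Uqcrc1, which had the smallest unadjusted p in GW-treated WT organoids, and Atp5k, which differed most between the runs of library numbers.
Cox8a (chr19:7217567-7217866, minus strand): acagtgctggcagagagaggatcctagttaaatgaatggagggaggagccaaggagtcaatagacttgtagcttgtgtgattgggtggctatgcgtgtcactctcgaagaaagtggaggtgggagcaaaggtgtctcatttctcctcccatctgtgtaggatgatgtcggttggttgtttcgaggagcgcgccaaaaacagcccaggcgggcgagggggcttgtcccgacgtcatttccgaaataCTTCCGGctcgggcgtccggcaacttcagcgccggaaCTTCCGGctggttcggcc
Cox8b (chr7:140900397-140900696, minus strand): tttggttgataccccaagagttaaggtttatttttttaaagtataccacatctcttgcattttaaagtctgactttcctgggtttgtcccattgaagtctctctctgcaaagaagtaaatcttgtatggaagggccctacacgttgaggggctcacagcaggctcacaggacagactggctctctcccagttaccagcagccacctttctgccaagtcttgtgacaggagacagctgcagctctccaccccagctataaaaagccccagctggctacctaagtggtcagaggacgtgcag
Uqcrc1 (chr9:108936398-108936697, plus strand): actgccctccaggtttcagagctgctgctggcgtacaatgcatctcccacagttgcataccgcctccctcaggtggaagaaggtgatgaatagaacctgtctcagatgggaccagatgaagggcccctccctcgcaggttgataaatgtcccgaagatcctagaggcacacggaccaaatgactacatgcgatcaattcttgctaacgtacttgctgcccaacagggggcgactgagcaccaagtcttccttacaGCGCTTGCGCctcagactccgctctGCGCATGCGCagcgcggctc
Atp5k (chr5:108434350-108434649, minus strand): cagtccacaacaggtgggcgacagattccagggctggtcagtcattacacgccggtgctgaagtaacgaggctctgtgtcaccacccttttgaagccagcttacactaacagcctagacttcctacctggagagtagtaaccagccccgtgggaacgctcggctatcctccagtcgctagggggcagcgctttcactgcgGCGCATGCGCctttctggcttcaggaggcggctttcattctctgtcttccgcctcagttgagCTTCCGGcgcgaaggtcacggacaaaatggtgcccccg

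Cox8a, a small membrane subunit of cytochrome c oxidase, had 24139 counts and a promoter with 2 ETS cores, as the capitals show. Cox8b, its heart and muscle form, and Cox8c had 0 counts, which allows a share of the set of up to 0.0124% each (3 counts); this limit covers counting error only. Neither motif occurs in the Cox8b window. Over the 71 promoters of the chain, 18 (25.4%) held the NRF1 core and 16 (22.5%) the ETS core, against 4.6% and 8.86% of all 32851 promoters in the table. Atp5k was 1 of 4 promoters with both. None of the 71 held a pair of AGGTCA with 1 base between them, a direct repeat of the kind bound by PPAR heterodimers, and 0.0396% of all promoters did. So rare an exact match cannot tell the chain from other genes. A match is a description of letters in this window and not a binding site.

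The same choice of form held for the other isoform sets. Cox4i1 had 17953 counts and Cox4i2, the lung form, had 0; Cox6b1 had 32565 and Cox6b2, the testis form, 35. Cox6a1 had 9037 counts and the muscle form Cox6a2 had 4. Ndufa4, which is named for complex I although its protein is found with complex IV, had 36038 counts and its paralog Ndufa4l2 had 3. Per kilobase of the longest coding transcript, these pairs averaged 1327 against 0, 2988 against 3.33, 895 against 0.316, and 3354 against 0.188 CPM. These libraries count transcript ends, so scaling by length does not make the comparison more exact.
Cox7a1, known as the heart and muscle form of a complex IV subunit, was the exception: it had 1443 counts. It made up 4.39% ± 1.28 (SD, n = 37) of Cox7a1 and Cox7a2 counts together, with group means between 4.09% and 4.65%. Of the 3 genes for the c subunit of the ATP synthase rotor, Atp5g1 gave 59.5% of counts, Atp5g2 20.4% and Atp5g3 20.1%. Atp5g1 shares ranged from 53.6% to 64.2% across libraries, and groups overlapped.

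Within each complex, counts were spread over many nuclear subunits. By mean CPM, complex I was led by Ndufa4 (2046, placed in complex I by its symbol only), Ndufc1 (967) and Ndufa3 (790). Complex III was led by Uqcrq (1323), Uqcr10 (1290) and Uqcrb (1242), small subunits of the bc1 complex. Complex IV was led by Cox6b1 (1847), Cox7a2 (1737) and Cox6c (1595), and complex V by Atp5j2 (1843), Atp5l (1714) and Atp5h (1713). In complex II the membrane anchor Sdhd averaged 670 CPM and the iron-sulfur subunit Sdhb 624, the anchor Sdhc 223 and the flavoprotein Sdha 214. These are counts of transcript ends and are not scaled by length.

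The 13 mitochondrial genes were read very unequally. In shares of their counts, mt-Co3 took 26.8%, mt-Nd1 21.6%, mt-Cytb 17.6%, mt-Atp6 15.7% and mt-Co2 9.80%, together 91.5%. Behind them came mt-Nd4 with 4.81%, mt-Co1 with 1.24% and mt-Nd2 with 1.07%. Below 1% were mt-Nd3 (0.658%), mt-Nd5 (0.409%), mt-Nd4l (0.194%), mt-Nd6 (0.0759%) and mt-Atp8 (0.0559%). These are shares of counts from 3′ libraries and not per length; the mRNA of mt-Co1, the catalytic subunit of cytochrome c oxidase, averaged 718 CPM, against 15535 CPM for its partner mt-Co3.

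Some of the low members share bases with a neighbour, and reads on those bases could be counted for either gene. On the mitochondrial genome (mm10), the reading frames of mt-Atp8 and mt-Atp6 share 43 bases, and those of mt-Nd4l and mt-Nd4 share 7. The last 43 bases of the first gene of each pair, from GENCODE transcripts, are shown with the shared bases in capitals.
mt-Atp8 (chrM:7927-7969, plus strand): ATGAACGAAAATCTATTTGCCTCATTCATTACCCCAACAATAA
mt-Nd4l (chrM:10131-10173, plus strand): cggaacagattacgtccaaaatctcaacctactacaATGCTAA
The first stretch is the end of mt-Atp8 and the start of mt-Atp6. mt-Atp8 averaged 32.4 CPM and mt-Atp6 9110 CPM. In the second pair, mt-Nd4l averaged 112 CPM and mt-Nd4 2789 CPM. The part of the shared bases in the low values of mt-Nd4l and mt-Atp8 was not tested, so these values are uncertain. Where the polyadenylated ends lie in each pair was not tested either, so a low count does not show that an mRNA was rare. In addition, mt-Nd6, the one member on the other strand, overlaps the last 14 bases of mt-Nd5, and whether counting used strand is not given in the sources used here.

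**Figure D1:**
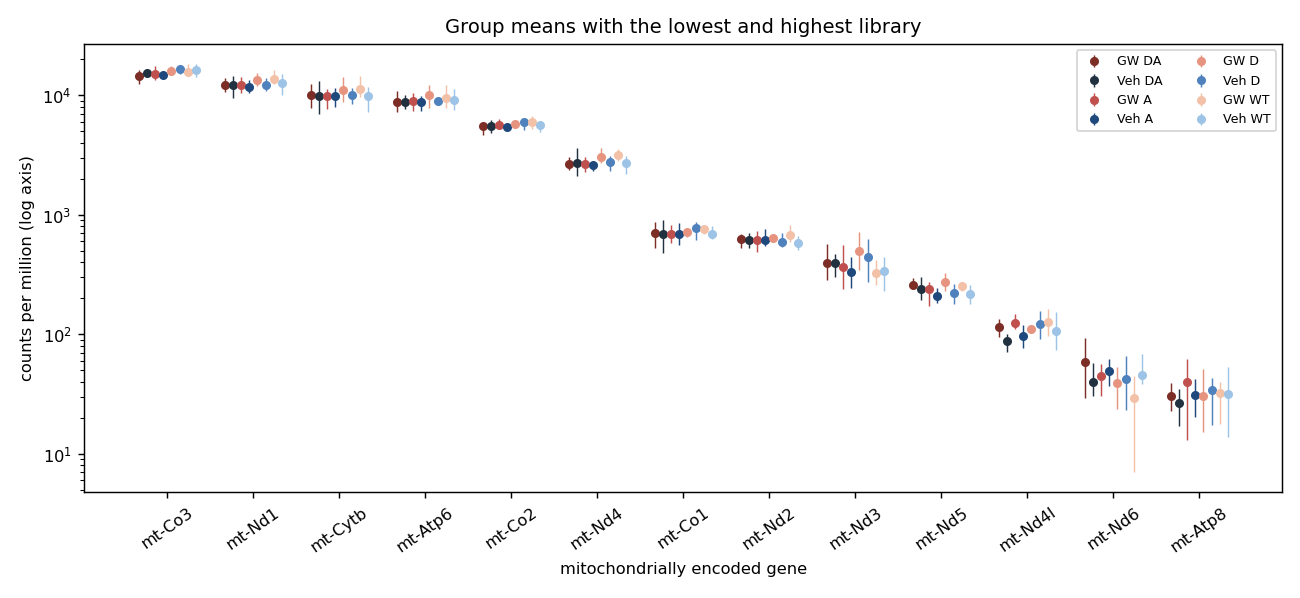
Level of each mitochondrially encoded gene in CPM (log axis): points are means of the 8 treatment and genotype groups, bars run from the lowest to the highest library. The order from mt-Co3 to mt-Atp8 spans from 15535 to 32.4 CPM, and the ranges of all 8 groups overlap for each gene except mt-Nd4 and mt-Nd4l, where some pairs of groups do not.

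Across the 8 groups the level of the chain varied little. The highest group mean over the lowest had a median of 1.19 for nuclear members (range 1.08 to 2.05) and 1.17 for mitochondrial ones (1.09 to 2.01). Ratios over 1.5 were found for 1 of 77 nuclear genes, the low member Atp5s, and for 3 of 13 mitochondrial genes, mt-Nd3, mt-Nd6 and mt-Atp8. Summed nuclear CPM averaged 52320 ± 6198 in GW DA and 54624 ± 4362 in vehicle DA, and 54563 ± 4948 in GW A and 56423 ± 3821 in vehicle A. They averaged 54428 ± 6127 in GW D and 57359 ± 6955 in vehicle D, and 51816 ± 4660 in GW WT and 57741 ± 5780 in vehicle WT (SD; n = 3 to 5). In each genotype the GW mean lay below the vehicle mean, and the libraries overlapped. Smaller sets of neighbouring library numbers hold GW and vehicle libraries unevenly and were not fitted, so the genotypes are not independent results. The order was not the same in every set. GW WT replicate 2 (57430 CPM) stood above vehicle WT replicate 1 (53215 CPM) of its set. GW WT replicate 3 (54105 CPM) stood below vehicle WT replicate 3 (60280 CPM) of its set.
Summed mitochondrial CPM did not follow the order of the nuclear means. It averaged 56091 with GW and 56685 with vehicle in DA, and 56819 and 55514 in A. It averaged 61686 and 58839 in D, and 61454 and 58209 in WT. The ratio of mitochondrial to nuclear sums was 1.09 ± 0.22 with GW and 1.05 ± 0.19 with vehicle in DA, and 1.06 ± 0.20 and 0.99 ± 0.13 in A. It was 1.16 ± 0.30 and 1.04 ± 0.16 in D, and 1.20 ± 0.23 and 1.03 ± 0.23 in WT. Over both runs the libraries overlapped in every genotype; values within each run are given with the library numbers.

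**Figure D2:**
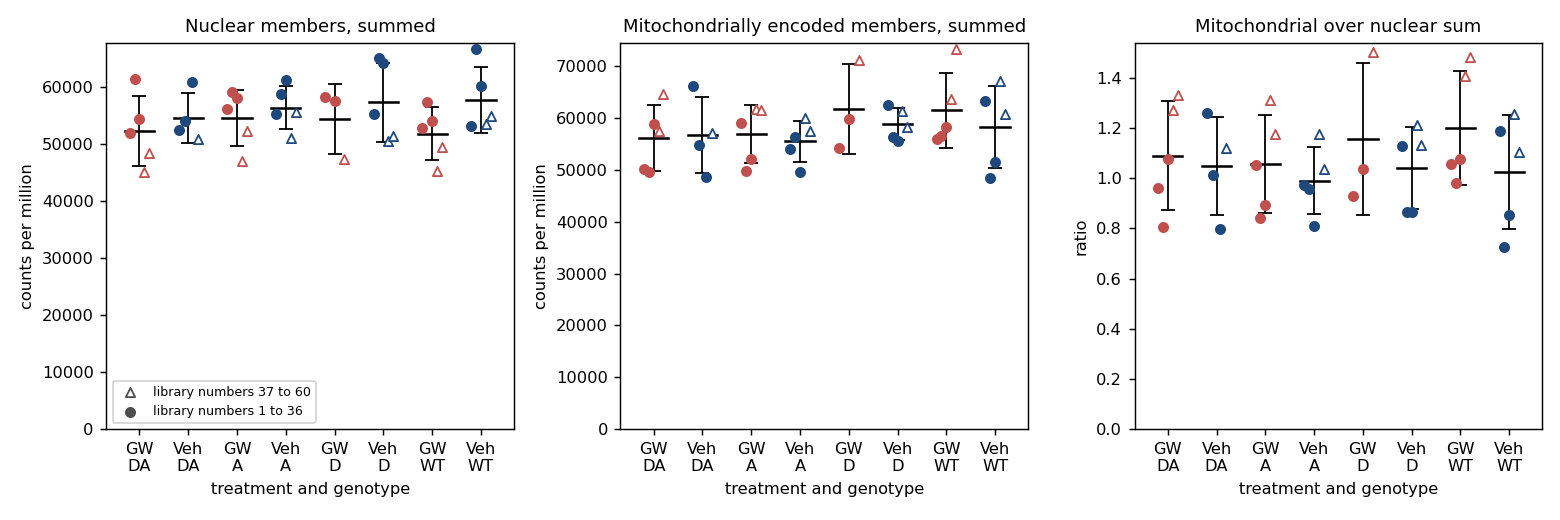
Summed CPM of nuclear members, of mitochondrial members, and their ratio, by treatment and genotype; each symbol is a library, lines and bars are mean ± SD. Open triangles (library numbers 37 to 60) sit low in the nuclear panel and high in the ratio panel, and GW (red) and vehicle (blue) libraries overlap in every genotype.

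The comparison of GW with vehicle asks whether the agonist moves the chain, and whether that needs the receptors. No member passed edgeR's quasi-likelihood test at a Benjamini-Hochberg adjusted p under 0.05 in any genotype: 0 of 90 in WT, where 0.408% of the 4902 genes tested passed, 0 in D (0% of genes), 0 in A (0.306%) and 0 in DA (0%). DESeq2 and limma-trend also called 0 members in each. At an unadjusted p under 0.05 there were 2 members in WT (6.18% of genes), 3 in D (3.24%), 0 in A (3.59%) and 3 in DA (3.20%). With a term for the run of library numbers in the model, again 0 of 90 passed in WT (0.428% of genes passed), D (0%), A (0.347%) and DA (0%). In that fit 14 members had an unadjusted p under 0.05 in WT (8.59% of genes), 3 in D (4%), 2 in A (4.22%) and 6 in DA (3.9%), so the counts in WT and DA depend on the term. In WT the 95% interval of 87 of the 90 members lay within a 2-fold change either way, and that of 58 within a 1.5-fold change. Of all 4902 genes tested, 3611 and 1533 did.
The nuclear genes leaned to lower values with GW, and the mitochondrial ones did not. In WT, 69 of 77 nuclear members had a negative log2 fold change (48.9% of all genes did), with a median of -0.20, whereas 4 of 13 mitochondrial members did, with a median of 0.08. By complex, the nuclear medians in WT were -0.14 for complex I (32 of 36 negative), -0.10 for complex II (2 of 4), -0.24 for complex III (8 of 8), -0.23 for complex IV (12 of 12) and -0.18 for complex V (15 of 17). Members of one complex share libraries and are not replicates. Within library numbers 37 to 60 the nuclear median was -0.28 and within 1 to 36 it was -0.13; without vehicle WT replicate 2 it was -0.09. The mitochondrial median was 0.02 without vehicle WT replicate 5 and 0.03 without GW WT replicate 5.
In D, 59 of 77 nuclear members were negative (median -0.07), in A 45 (median -0.01) and in DA 54 (median -0.06), beside 50.2%, 50% and 50.1% of all genes. Of the 13 mitochondrial members 6, 1 and 4 were negative. Each of these 3 nuclear medians crossed zero when a single library was left out, with ranges of -0.16 to 0.07 in D, -0.06 to 0.03 in A and -0.13 to 0.01 in DA. The libraries concerned were vehicle D replicates 2 and 3 and GW D replicate 3, vehicle A replicates 2 and 3 and GW A replicate 4, and vehicle DA replicate 3. With the run term the nuclear median in DA was -0.02, and in WT it was -0.19.

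**Figure D3:**
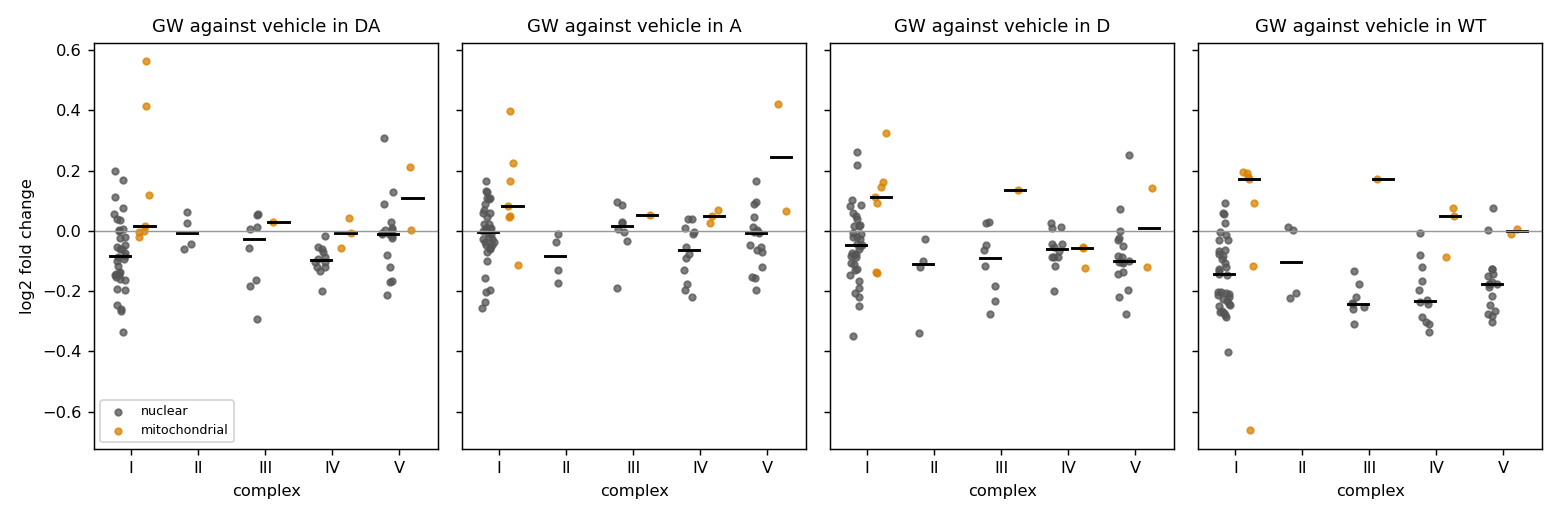
log2 fold change of GW over vehicle for each tested member, by complex, in DA, A, D and WT; grey points are nuclear genes, orange points mitochondrial genes, black lines medians. Points lie close to 0, with the nuclear genes of WT shifted below it (median -0.20) and none past the adjusted threshold.

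The members with the smallest unadjusted p in WT show the size of these differences. Uqcrc1, a core protein of complex III, had 119, 128, 106, 116 and 134 CPM in GW WT organoids, against 133, 182, 117, 134 and 159 CPM in vehicle WT organoids. The groups overlapped, since the lowest vehicle library lay within the GW range. Its log2 fold change was -0.31 ± 0.15 (SE; unadjusted p = 0.0411, adjusted p = 0.789 in edgeR). Ndufv2, an iron-sulfur subunit of the NADH-oxidising arm of complex I, had 448, 367, 396, 400 and 454 CPM with GW, against 450, 418, 444, 528 and 523 CPM with vehicle (log2 fold change -0.23 ± 0.11; adjusted p = 0.789). Both vehicle libraries of the later run stood above every GW library.
Cox7a2, one of the 3 nuclear complex IV genes with the highest CPM, had 1711, 1880, 1738, 1244 and 1472 CPM with GW, against 1766, 2570, 2019, 1591 and 1589 CPM with vehicle. Its highest value, in vehicle WT replicate 2, stood well above the rest. Sdha, the flavoprotein of complex II, had 192, 222, 162, 264 and 239 CPM with GW, against 220, 170, 141, 251 and 264 CPM with vehicle, with no visible order.
Among mitochondrial genes, mt-Nd4, a proton-pumping subunit of complex I, had 2949, 2834, 2922, 3590 and 3529 CPM with GW in WT, against 3094, 2203, 2308, 2969 and 2911 CPM with vehicle. mt-Nd6, another membrane subunit, went the other way and was sparse: 44.4, 44.8, 7.06, 27.1 and 23.7 CPM with GW, against 38.2, 68.1, 39.6, 41.1 and 39.8 CPM with vehicle (log2 fold change -0.66 ± 0.35; adjusted p = 0.794). A single GW library with 3 counts carried the lowest value.

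In the other genotypes other members led. In D, Sdhb, the iron-sulfur subunit of complex II, had 599, 567 and 488 CPM with GW, against 647, 696, 715, 708 and 723 CPM with vehicle, and the groups did not overlap. Its log2 fold change was -0.34 ± 0.15 (unadjusted p = 0.0345, adjusted p = 1.00 in edgeR). Atp5c1, the central gamma shaft of the ATP synthase, had 966, 785 and 769 CPM with GW in D, against 1068, 917, 944, 1185 and 998 CPM with vehicle (log2 fold change -0.28 ± 0.12; adjusted p = 1.00).
In DA, Ndufv2 had 365, 380, 335, 403 and 453 CPM with GW, against 451, 465, 487 and 460 CPM with vehicle (log2 fold change -0.27 ± 0.11; adjusted p = 1.00). Uqcrc2, the second core protein of complex III, had 573, 387, 335, 374 and 408 CPM with GW, against 555, 530, 417 and 533 CPM with vehicle (-0.29 ± 0.14). One GW library of DA was above every vehicle library for Uqcrc2. In A, mt-Nd4l had 147, 117, 111, 137 and 116 CPM with GW, against 96.2, 76.5, 120, 96.3 and 98.8 CPM with vehicle (0.40 ± 0.20; adjusted p = 0.999).
Averaged over the 4 genotypes, 0 of 90 members passed (0.653% of genes did) and 8 had an unadjusted p under 0.05 (6.65% of genes), 7 of them negative. With the run term 0 passed as well (0.755% of genes), and 13 had an unadjusted p under 0.05 (8.38%). Within library numbers 37 to 60 alone, 1 passed (0.562% of genes) and 30 had an unadjusted p under 0.05 (10.6%); 2 of the 8 groups hold a single library there. Atp5c1 was first at -0.17 ± 0.05 (adjusted p = 0.234; 0.114 with the run term). It was the 1 that passed within 37 to 60, at -0.36 (adjusted p = 0.022). It was followed by Ndufv2 at -0.16 ± 0.06 (adjusted p = 0.345) and Sdhb at -0.19 ± 0.07 (adjusted p = 0.361). The first mitochondrial gene, mt-Nd5, was at 0.21 ± 0.08 (adjusted p = 0.447). Of the nuclear members 71 of 77 were negative (median -0.09) and of the mitochondrial 2 of 13 (median 0.07), where 49.8% of all genes were negative. Without GW D replicate 3 the nuclear median was -0.05, and without GW D replicate 2 the mitochondrial one was 0.04. The average rests on the same libraries as the genotype values.

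Of 6 enterocyte markers, 1 passed with GW. Fabp1, a fatty acid binding protein of enterocytes also chosen as a check of the agonist, rose in WT (log2 fold change 1.18 ± 0.29; adjusted p = 0.0494) and in A (1.28 ± 0.29; adjusted p = 0.0296). In WT the other markers stood at 0.51 for Fabp2 (adjusted p = 0.544), 0.69 for Apoa4 (0.669), -0.04 for Apoa1 (0.991), -0.27 for Alpi (0.876) and -0.60 for Sis (0.736) on the log2 scale. None of these 5 passed in any genotype. The sum of 6 markers ranged from 30469 to 64867 CPM in GW WT libraries and from 16962 to 24152 CPM in vehicle WT libraries, and Fabp1 made up most of it (26250 to 59402 CPM with GW, 13490 to 19562 CPM with vehicle). In A the marker sum was 20327 to 34008 CPM with GW and 10479 to 14772 CPM with vehicle, in D 26497 to 50120 and 16565 to 37977 CPM, and in DA 8391 to 18074 and 9834 to 16488 CPM. The marker sums of GW and vehicle libraries overlapped in D and DA. Their part in the values of the chain was not tested. In bulk libraries, fewer cells of a type and less RNA per cell cannot be told apart.

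The genotypes were also set against WT under the same treatment. In vehicle, 0 of 90 members passed in D (0.0408% of genes passed), in A (0.0816%) and in DA (0.326%). With GW, 0 of 90 passed in D (0.0612%), in A (0.184%) and in DA (0.836%). DESeq2 and limma-trend called 0 members in each of the 6. At an unadjusted p under 0.05 the member counts were 0, 0 and 2 in vehicle (3.47%, 4.45% and 6.10% of genes) and 0, 2 and 4 with GW (3.47%, 4.96% and 8.69%). With the run term 0 of 90 passed in each of the 6, where 0.0612%, 0.163% and 0.428% of genes passed in vehicle and 0.0612%, 0.224% and 1.33% with GW. In that fit 1, 1 and 15 members had an unadjusted p under 0.05 in vehicle (4.08%, 5.49% and 7.79% of genes) and 2, 2 and 7 with GW (4.12%, 5.98% and 10.5%). These comparisons share the WT libraries, so their directions are not independent.
In vehicle, 33 of 77 nuclear members were negative in D, 65 in A and 68 in DA, beside 49.1%, 51.4% and 50.5% of all genes. The nuclear median was -0.11 in A and -0.16 in DA. Without vehicle WT replicate 2 these medians were -0.00 and -0.05, and without replicate 4 of their own vehicle group -0.06 and -0.09; without vehicle DA replicate 3 that of DA was -0.24, and with the run term -0.21. Of the 13 mitochondrial members 3, 12 and 10 were negative in D, A and DA.
With GW, 15 of 77 nuclear members were negative in D, 19 in A and 43 in DA, beside 50%, 51.7% and 50.6% of all genes. Of the mitochondrial members 5, 10 and 10 were negative. The nuclear median in D, 0.12, was between 0.02 and 0.26 when GW D replicates 1, 2 or 3 or GW WT replicate 4 was left out.
Ndufa12, an accessory subunit of complex I, had the smallest unadjusted p of the members in A and the lowest values in Ppara-null organoids. It had 258, 237, 204, 330 and 369 CPM in GW A organoids, 319, 327, 273, 309 and 320 CPM in GW DA organoids, and 331, 452, 410, 390 and 438 CPM in GW WT organoids. All 5 DA libraries lay below the WT range, and 4 of 5 A libraries did. The log2 fold change was -0.55 ± 0.16 for A (unadjusted p = 0.00173, adjusted p = 0.425) and -0.41 ± 0.16 for DA (adjusted p = 0.359 in edgeR).
In vehicle, Ndufa12 had 216, 254, 448, 395 and 391 CPM in A and 352, 408, 273 and 392 CPM in DA, against 349, 405, 422, 391 and 449 CPM in WT, with overlap. The vehicle difference of A was -0.32 ± 0.16 (adjusted p = 0.999). In D it had 355, 438 and 442 CPM with GW and 376, 439, 402, 372 and 333 CPM with vehicle, within the WT range except for 1 vehicle library.
For the rotor gene Atp5g1, vehicle DA libraries had 1275, 1529, 1501 and 1527 CPM, against 1629, 1604, 1496, 1708 and 1837 CPM in vehicle WT (log2 fold change -0.24 ± 0.11; adjusted p = 0.706). mt-Nd6, with 50.02, 83.5, 39.3, 29.1 and 93.7 CPM in GW DA organoids and the GW WT values above, had the largest difference of DA from WT under GW, 0.96 ± 0.34 (adjusted p = 0.287). mt-Nd3, another complex I subunit, had 424, 718 and 347 CPM in GW D, against 364, 313, 417, 262 and 268 CPM in GW WT (0.68 ± 0.34; adjusted p = 1.00).
The difference of the GW response from that in WT was tested directly. No member passed in D (0% of genes), A (0%) or DA (0.0816%), and 0, 0 and 1 had an unadjusted p under 0.05 (3.22%, 3.33% and 4.10% of genes). With the run term 0 passed in each (0%, 0% and 0.0816% of genes), and 0, 2 and 2 had an unadjusted p under 0.05 (3.57%, 4.49% and 5.41%). Without the run term that 1 was mt-Nd6 in DA, at 1.22 ± 0.49 (unadjusted p = 0.0165, adjusted p = 1.00). The difference was negative for 18, 16 and 18 of 77 nuclear members and for 7, 5 and 8 of 13 mitochondrial ones, beside 50.4%, 51% and 49.5% of all genes. Without vehicle WT replicate 2 the nuclear medians of these differences were 0.02, 0.08 and 0.02, against 0.12, 0.16 and 0.12 with it. The 95% intervals lay within a 1.5-fold change for 34 of 90 members in D, 41 in A and 42 in DA. Thus the nuclear leaning in WT was not shown to differ between genotypes.

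Other genes of the pathway, from lists chosen by function, also gave no calls. Of 14 tested of 20 electron carriers and linked enzymes, 34 of 45 assembly factors, 13 of 25 genes of mitochondrial DNA expression and its regulators, and 14 of 14 citrate cycle genes, none passed in any of the 14 comparisons (0% to 0.836% of all genes did). With GW, 2 of the 14 electron carriers and linked enzymes had an unadjusted p under 0.05 in WT, 0 in D, 4 in A and 2 in DA (edgeR). Of all genes, 6.18%, 3.24%, 3.59% and 3.20% did. The log2 fold changes of these 14 ran from -0.29 to 1.32 in WT and from -0.84 to 0.95 in A. Cyc1, which carries the cytochrome c1 haem of complex III, was at 0.01 ± 0.15 with GW in WT (adjusted p = 0.997). Cycs, cytochrome c, was at -0.08 ± 0.11 (adjusted p = 0.945). Etfb, which passes electrons from fatty acid oxidation to the chain, was at 0.44 ± 0.15 in WT (unadjusted p = 0.00407, adjusted p = 0.348), and Ppargc1a, a coactivator of mitochondrial genes, at -0.56 ± 0.42 (adjusted p = 0.864).

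By contrast, the chain differed between the runs of library numbers. In a fit with the 8 groups and a term for the run, 54 of 90 members passed (24.2% of genes did): 48 were lower in the later run, numbers 37 to 60, and 6 were higher (12.1% and 12% of genes). Of the nuclear members 43 fell and 5 rose, and of the mitochondrial ones 5 fell and 1 rose. Whatever their p, 53 of 77 nuclear and 9 of 13 mitochondrial members were lower, beside 44.1% of all genes. Both runs hold libraries of every group. In a fit of GW libraries alone 41 members passed (11.5% of genes), and of vehicle libraries alone 45 (15.3%). What the run stands for, and the part of the Xist difference in it, was not tested. Libraries were treated as independent within a run. Smaller sets of neighbouring numbers were not fitted, so p-values of the run term do not cover differences between such sets.
Atp5k, the e subunit at the foot of the ATP synthase whose promoter is shown above, ranged from 599 to 874 CPM (median 705) in the later run and from 1086 to 1752 CPM (median 1258) in the earlier one. No library overlapped, and the log2 fold change was -0.999 ± 0.07 (adjusted p = 1.35e-13). Ndufa3, an accessory subunit of complex I, ranged from 499 to 651 CPM (median 542), against 748 to 1176 CPM (median 897), again without overlap (-0.90 ± 0.07; adjusted p = 1.03e-12). Cox7a1 ranged from 32.1 to 102 CPM (median 50.7), against 56.2 to 154 CPM (median 93.9), with overlap (-0.98 ± 0.16; adjusted p = 1.19e-05).
Other small subunits fell likewise: Atp5mpl by 0.86, Ndufa1 by 0.83, Atp5e, the epsilon subunit, by 0.78 and Cox6c by 0.76 on the log2 scale (adjusted p = 4.15e-10 for Atp5mpl, 2.39e-11 for Ndufa1, 6.61e-10 for Atp5e and 2.14e-10 for Cox6c). The 5 nuclear genes that rose were Ndufv1, the NADH-binding subunit of complex I (0.30 ± 0.08; adjusted p = 0.00616), Sdhd, a membrane anchor of complex II (0.24 ± 0.05), Uqcrfs1, the Rieske iron-sulfur protein (0.23 ± 0.07), Sdha (0.20 ± 0.07) and Atp5d, the delta subunit (0.15 ± 0.05). These 5 calls depended on the fit: 1 of them, Sdhd, passed without the filter (49 members in all; 4.72% of genes), none in GW libraries alone, and Sdhd, Atp5d and Uqcrfs1 in vehicle libraries alone. Sdha also missed the threshold under RLE scaling (adjusted p = 0.0627) and under scaling without mitochondrial genes (0.0591). Sdhd ranged from 627 to 891 CPM (median 793) in the later run and from 517 to 774 CPM (median 586) in the earlier one, with overlap.
By complex, 20 nuclear members of complex I passed as lower and 1 as higher of 36, and 0 and 2 of 4 in complex II. The counts were 5 and 1 of 8 in complex III, 10 and 0 of 12 in complex IV, and 8 and 1 of 17 in complex V. Median log2 fold changes were -0.26, 0.13, -0.41, -0.42 and -0.18.

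**Figure D4:**
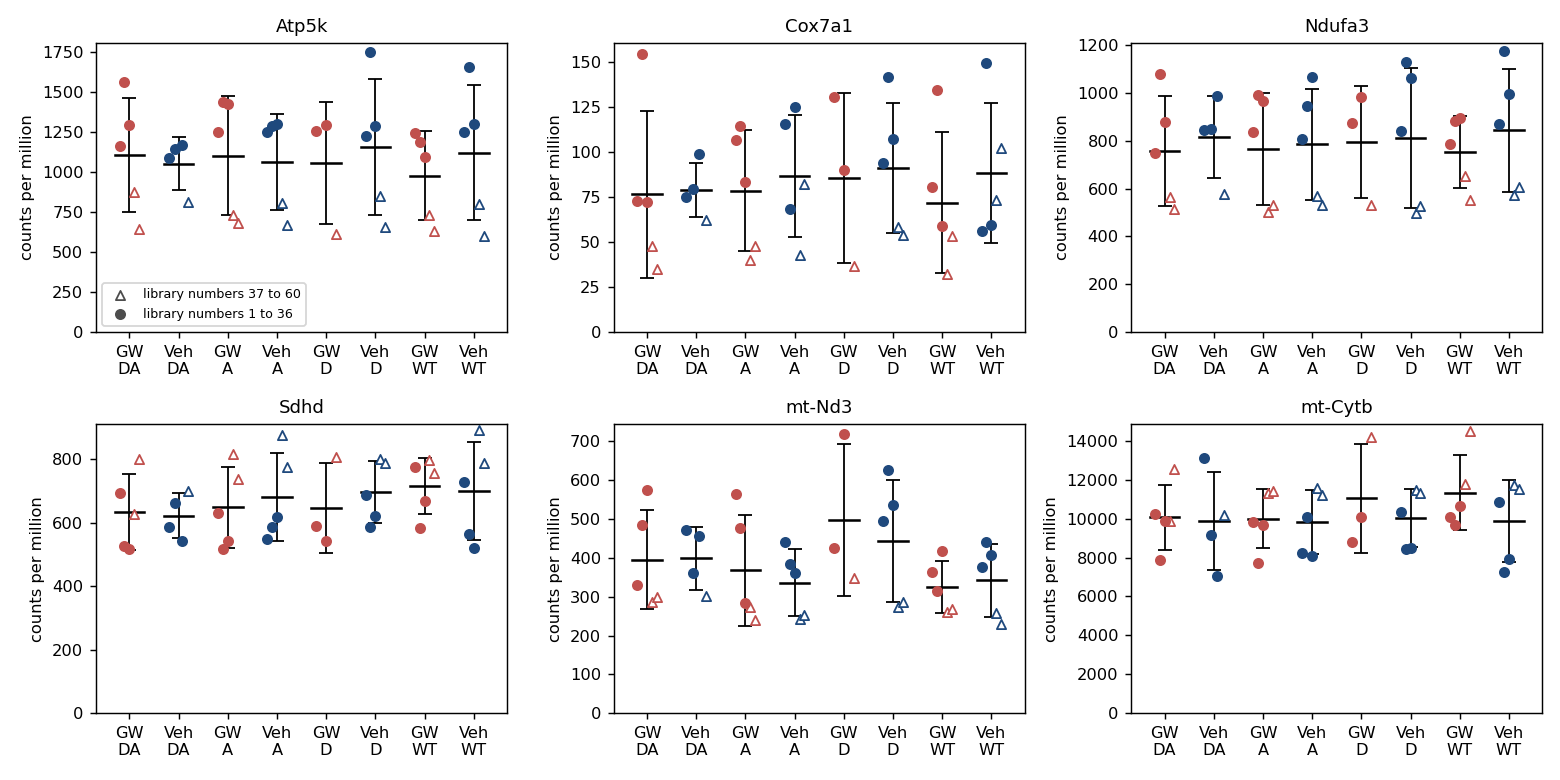
CPM of 6 members by treatment and genotype; each symbol is a library, lines and bars are mean ± SD. Open triangles (library numbers 37 to 60) lie below the filled circles for Atp5k and Ndufa3 in every group, and mostly above them for Sdhd.

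These differences went with transcript length. Over the 77 nuclear members, the log2 fold change of the run and the median length of a gene's coding transcripts had a Spearman rho of 0.64 (Pearson r with log2 length 0.602), where 4593 other genes gave 0.111. The genes share libraries and depth, so this is a description. The lengths are medians over annotated coding transcripts, and which of these the organoids carry was not tested. Of 29 members with transcripts of up to 600 bases, 26 passed as lower and 0 as higher, with a median of -0.43. Of 30 with more, up to 1000 bases, 14 passed as lower and 1 as higher (median -0.17). Of 18 longer ones, 3 passed as lower and 4 as higher (median 0.08). Among other genes the shares that passed as lower were 38.1%, 16.9% and 6.33%. Atp5k has a median of 321.5 bases and Ndufv1 of 1436. With GW in WT, rho was 0.38 for the nuclear members and 0.203 for other genes; in D, A and DA it was -0.116, -0.23 and -0.288 for the members.

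**Figure D5:**
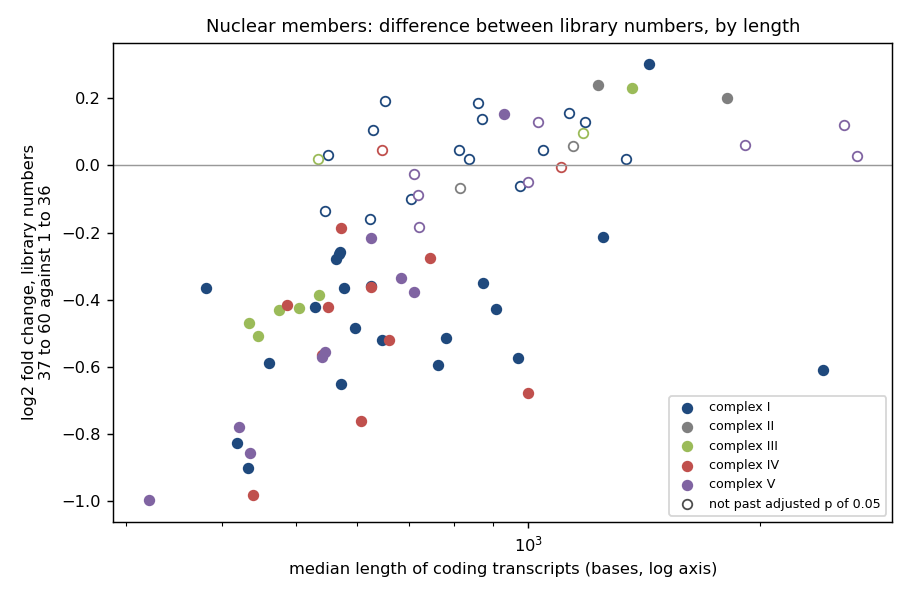
log2 fold change between library numbers 37 to 60 and 1 to 36 against the median length of coding transcripts (log axis) for 77 nuclear members; filled points passed the adjusted threshold, colours give the complex. Transcripts of up to 600 bases lie below 0 (median -0.43) except those of Ndufb8 and Uqcrc1, and those over 1000 bases lie around it (0.08).

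The mitochondrial genes split by gene. mt-Nd3 ranged from 229 to 347 CPM (median 271) in the later run and from 283 to 718 CPM (median 440) in the earlier one (-0.84 ± 0.09; adjusted p = 2.27e-09). mt-Co1 was also lower (-0.42 ± 0.06), as were mt-Nd4l (-0.35 ± 0.09), mt-Nd2 (-0.27 ± 0.06) and mt-Co2 (-0.17 ± 0.05), while mt-Cytb was higher (0.21 ± 0.06; adjusted p = 0.0121). mt-Cytb did not pass in GW libraries alone (0.22; adjusted p = 0.0883) or in vehicle libraries alone (0.18; adjusted p = 0.204). The 2 ribosomal RNAs of the mitochondrion were lower as well, mt-Rnr1 at -0.42 ± 0.12 and mt-Rnr2 at -0.26 ± 0.08.
The scale decides how the mitochondrial sum compares. Unscaled, it averaged 62530 ± 5005 CPM in the later run (n = 14) and 55261 ± 4942 CPM in the earlier one (n = 23); over library sizes scaled by TMM the means were 60921 ± 5586 and 59211 ± 5968. The nuclear sum was lower in the later run on both scales, 50226 ± 3297 against 57815 ± 4146 CPM unscaled and 48940 ± 3900 against 62147 ± 7536 scaled. In unscaled mean CPM, 45 of 77 nuclear and 8 of 13 mitochondrial members were lower in the later run. The ratio of the sums does not depend on the scale and averaged 1.25 ± 0.14 in the later run and 0.96 ± 0.13 in the earlier one.
Within the later run the ratio was 1.44 in GW WT and 1.18 in vehicle WT (n = 2 each), and within the earlier run 1.04 and 0.92 (n = 3 each). In the earlier run the libraries overlapped (0.982 to 1.07 with GW, 0.726 to 1.19 with vehicle). In the later run they did not (1.41 to 1.48 with GW, 1.104 to 1.25 with vehicle), with 2 libraries a group. The later run gave no overlap in the other genotypes either: 1.27 and 1.33 with GW against 1.12 with vehicle in DA, 1.176 and 1.31 against 1.04 and 1.175 in A, and 1.501 against 1.13 and 1.21 in D. In the earlier run the means were 0.95 with GW and 1.02 with vehicle in DA, 0.929 and 0.914 in A, and 0.983 and 0.953 in D, all with overlap. So few libraries a group allow no test.
Related genes moved with the run too. Of the 34 assembly factors 8 passed as lower and 3 as higher, beside 12.1% and 12% of all genes. They were led by Pet100, a complex IV assembly factor (-1.30 ± 0.09, adjusted p = 3.45e-14 in edgeR). Of the 14 citrate cycle genes 7 passed as higher and 0 as lower, with Fh1, fumarase, at 0.37 ± 0.06 (adjusted p = 2.63e-05).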

How the data were processed

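RNA of the organoids was counted as polyadenylated 3′ ends. The submitters' processing notes name mm10, edgeR 3.26.8, Salmon 1.1.0 and R 3.6.2, with no roles. The deposited table holds estimated counts per gene, rounded here to whole numbers. A second deposited table holds log2 values of CPM plus 1; 88.6% of its nonzero values, turned back, lay within 0.01 of a whole count. Of 57 columns, 20 were not used; 4 of the 37 used carry an unexplained suffix 2. Genes were named and placed with GENCODE vM21.

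Genes with enough counts (edgeR's filterByExpr) numbered 4902. They were fitted with edgeR 4.0.16 (R 4.3.3; quasi-likelihood test, TMM scaling, Benjamini-Hochberg adjustment over all 4902, threshold 0.05) in one model over the 8 groups, with 14 comparisons. DESeq2 1.42.0 and limma 3.58.1 were alternatives, as were other scalings, no filter, a term for the run of library numbers, each run alone and each library left out. The script was tested on simulated data. The comparison of library numbers was added after the data were examined. Sums, ratios and medians were given no p. Members, gene lists and tests were chosen with earlier results of these data known, some by an earlier analysis, and the lower nuclear values with GW in WT were among those results. Named genes were the mitochondrial members, isoform sets, the 3 nuclear members a complex with the highest CPM, and per comparison the 3 nuclear and 1 mitochondrial members with the smallest p; those named in the library number comparison, and those given per library, were chosen after their values were seen.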

Additional observations from a re-analysis of the deposited data

Results flagged for a closer look

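Among 224 sets of libraries of one group and gene, 7 held a library far from the others, where 1 in 20 (11.2) would be so by chance. mt-Nd5 was at 296 CPM in GW DA replicate 3, with the next library at 255. mt-Co3 was at 18188 CPM in GW WT replicate 5 (next 15048), and Atp5h at 1853 CPM in GW A replicate 5 (next 1674). In vehicle WT replicate 2, Ndufc1 was at 1483 CPM (next 996) and mt-Nd6 at 68.1 CPM (next 41.1). Atp5l was at 2064 CPM in vehicle DA replicate 3 (next 1490), and Sdhc at 197 CPM in vehicle D replicate 4, below the next at 241.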

How the results depend on the processing

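By the labels, no paired analysis was possible because the columns carry no replicate number of the labels. The library numbers can be split into smaller sets of neighbours, with at most 1 library of each group in a set. A fit with these sets as blocks was possible but was not run, so the p-values do not account for them. In the later run, Atp5k was at 730 to 874 CPM in the lower-numbered set and at 599 to 679 CPM in the higher-numbered one. Other members were not compared between sets. No member passed in any of the 14 comparisons under any alternative, except Atp5c1 for the GW mean in library numbers 37 to 60 alone (1 member; log2 fold change -0.36, adjusted p = 0.022) and mt-Nd6 for DA against WT under GW without the filter (1 member; 0.98, adjusted p = 0.0319). With library numbers 37 to 60 alone, the mitochondrial median of GW in D was 0.25, and the direction turned for Ndufb5 (-0.077, D against WT in vehicle), Ndufa8 (-0.14, D against WT under GW) and Ndufs5 (-0.019, GW response in D minus WT). In these numbers GW D and vehicle DA hold 1 library each, so the values for GW D rest on 1 library, assumed to vary like the other groups. There, GW D had a nuclear sum of 47367 CPM, a mitochondrial sum of 71113 CPM and a ratio of 1.501, and GW WT a ratio of 1.44. Without the suffix 2 columns, the mitochondrial median of GW in DA was 0.19 and that of the GW response in DA minus WT 0.12. With totals that leave out mitochondrial genes, the nuclear sums were 59792 in vehicle DA, 59881 in GW A, 61429 in vehicle A and 57074 in GW WT, and the mitochondrial ones 60456 in vehicle A and 64736 in vehicle D. TMM scaling put the mitochondrial sum of vehicle D at 62847. Leaving out 1 library moved the mitochondrial median of GW in D between -0.065 and 0.18 (lowest without GW D replicate 2) and of GW in DA between -0.026 and 0.16 (lowest without GW DA replicate 3). The cause was not tested. Depth limits mt-Nd6, mt-Atp8 and Atp5s, whose libraries hold few counts. For the library numbers, 49 to 57 members passed under the other tools, scalings and filters.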
